A study of Mus musculus with 8 samples.

Results

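The 10 genes described here encode proteins known from nerve and endocrine cells: the ion channel subunits Cacna1a, Cacna1h and Scn3a, the active zone protein Pclo, the granule membrane proteins Ptprn and Ptprn2, the G protein subunit Gnao1, the kinase anchor Sphkap, the microtubule protein Map1b and the zinc finger protein Peg3. They were chosen as a named list for their lower level after Sox4 loss in crypt-enriched epithelium, so that difference is given below as a description and not as a test. All 10 were found among the 23366 gene symbols of the count tables, and all 10 passed the filter on low counts that left 20427 genes.

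RNA-seq was done on intestinal epithelial cells of adult male mice aged 6 weeks. Control animals carried floxed Sox4 alleles (Sox4fl/fl) without Cre. Knockout littermates (Sox4cKO) carried the same alleles with villinCre, a transgene active in intestinal epithelium from embryonic life. Sox4 was therefore targeted in the whole epithelium and not in 1 cell type, and how complete the deletion was in each cell type was not tested. CD326+ epithelial cells, 50000 per library, were sorted into a CD44- fraction enriched for villus cells (CD44minus) and a CD44+ fraction enriched for crypt cells (CD44plus). Each of the 4 groups had 2 libraries. Pairs of values below are in the order replicate 1, replicate 2.

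Enteroendocrine cells secrete the hormones of the gut. They are electrically excitable: calcium entry through voltage-gated channels releases hormone from dense-core granules, with machinery that they share with neurons. They arise in crypts from secretory progenitors under Neurog3 and Neurod1. Sox4 is an HMG-box transcription factor of the SoxC group.

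Promoter windows of 250 bases before and 50 after the start were found in RefSeq (GRCm38.p6) for 7 of the 10 genes, with 2 windows for Ptprn. Cacna1h, Cacna1a and Scn3a had no entry. The windows were searched on both strands for letters bound by factor families of endocrine and neuronal genes, and each match is only a match of letters. The SOX core AACAAAG was in the window of 0 of the 7 genes, beside 5.85% of all 32851 promoters. The E-box CAGATG, of the kind NeuroD and Neurog3 bind, was in 2 (Map1b and Pclo), beside 17.2%. The general E-box CANNTG, which includes CAGATG, was in 6 of 7, beside 72.3%. The RFX letters GTTGCC were in 3 (Ptprn, Peg3 and Map1b), beside 12.5%. The left and right parts of the REST element, TTCAGCACC (0.371% of promoters) and GGACAGCGC (0.405%), were in the window of Ptprn2 alone among the 7. REST is a repressor of neuronal genes in other cells.

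The sequences below are shown for the E-box and RFX letters of Map1b, Pclo and Peg3 and the REST letters of Ptprn2. All are 5′ to 3′ on the strand of the gene. Capitals mark CAGATG or GTTGCC in either orientation in the first 3, and the adjacent REST parts in the last. The Map1b stretch lies at chr13:99516603-99516852 (minus strand), and also overlaps the first exon of the divergent non-coding RNA Gm26559. The Pclo stretch lies at chr5:14514668-14514917 (plus strand). The Peg3 stretch is the 146 bases at chr7:6730432-6730577 (minus strand) between the annotated starts of Peg3 and of Usp29 on the opposite strand. The Ptprn2 stretch is the first 30 transcribed bases at chr12:116485720-116485749 (plus strand).
Map1b: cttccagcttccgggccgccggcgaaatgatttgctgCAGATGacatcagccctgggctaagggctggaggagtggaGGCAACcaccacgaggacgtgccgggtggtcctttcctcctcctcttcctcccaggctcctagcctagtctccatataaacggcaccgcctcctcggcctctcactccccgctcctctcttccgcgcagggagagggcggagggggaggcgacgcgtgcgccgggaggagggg
Pclo: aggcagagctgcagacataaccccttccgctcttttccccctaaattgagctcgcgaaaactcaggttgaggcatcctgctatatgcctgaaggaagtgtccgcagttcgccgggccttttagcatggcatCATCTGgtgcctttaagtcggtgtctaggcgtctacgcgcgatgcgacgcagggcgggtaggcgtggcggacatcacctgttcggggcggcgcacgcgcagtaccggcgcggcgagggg
Peg3: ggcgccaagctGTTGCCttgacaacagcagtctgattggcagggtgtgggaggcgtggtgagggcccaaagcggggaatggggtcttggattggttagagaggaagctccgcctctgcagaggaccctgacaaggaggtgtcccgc
Ptprn2: ggtgGCGCTGTCCGGTGCTGAAgctcggcc
In Ptprn2 the 18 capital letters read the REST parts on the minus strand with no base between them. This spacing was not compared with that of bound REST elements, so the pair is not read as an intact element. Both parts were found in 5 of the 32851 windows (0.0152%). The median GC content was 60.8% over the 8 windows of these genes and 52.4% over all promoters.

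Depth differed between libraries, and it bears on these long, weakly expressed genes. Libraries held 886194 to 13238050 reads counted to genes, and 64.64% to 96.65% of uniquely placed reads were counted to no gene. In CD44minus, 3 libraries held 886194 to 2327002 reads on genes, with 91.99% to 96.65% counted to no gene. Sox4cKO CD44minus replicate 2 held 6963345, with 76.85%. The CD44plus libraries held 6007554 to 13238050, with 64.64% to 79.28%. Levels are given as CPM, the reads of a gene scaled to a common library size with TMM (trimmed mean of M values) factors. A count of 0 allows up to 3 reads, which is 0.268 to 2.02 CPM on this scale. As a gauge of reads unrelated to transcription in gut, 1432 olfactory and vomeronasal receptor genes took 1229 to 2360 CPM in 3 CD44minus libraries, 347 CPM in Sox4cKO CD44minus replicate 2, and 84.2 to 392 CPM in CD44plus. Sox4cKO CD44minus replicate 2 therefore stands apart from the other CD44minus libraries, and lies within the range of the CD44plus libraries in depth and in this gauge. In CD44plus, Sox4 itself was at 128 and 120 CPM in controls and 17.8 and 25.7 in Sox4cKO. In CD44minus it was at 6.73 and 8.25 CPM in controls (10 and 21 reads) and 1.98 and 0.272 in Sox4cKO (4 and 1 reads). Those Sox4cKO counts are near or below the 3 reads that a count of 0 allows. Sox4 was thus lower in both Sox4cKO libraries of CD44plus, as the labels have it, and in CD44minus the difference rests on few reads.

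Cacna1a and Ptprn2 were the most abundant of the 10 in control CD44plus when levels were divided by exon length. Ptprn2 had 22.1 ± 2.86 CPM per exonic kb (SD, n = 2) and Cacna1a 16.6 ± 2.33, a difference larger than either SD. Map1b (5.71 ± 0.269) and Pclo (5.51 ± 1.13) followed at about the same level per kb. Gnao1 (4.37 ± 0.394), Sphkap (3.80 ± 0.623), Peg3 (3.79 ± 0.531), Ptprn (3.26 ± 0.546) and Cacna1h (3.17 ± 0.487) formed a graded middle in which each neighbour differed from the next by no more than their spread. Scn3a was lowest, at 1.98 ± 0.138 CPM per kb. In Sox4cKO CD44plus, Cacna1a (9.21 ± 0.588 CPM per kb) stood above Ptprn2 (7.45 ± 0.270), and the other 8 genes lay between 0.356 (Scn3a) and 1.65 (Pclo). With 2 libraries a group, these levels are a description.

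Among the channels, Cacna1a encodes the pore of the P/Q-type calcium channel, which opens at high voltage and triggers release at nerve endings (chr8:84388440-84640246). Its CD44plus level was 170 and 208 CPM in controls and 100 and 110 in Sox4cKO. The groups did not overlap, and the log2 fold change was -0.85 (SE 0.66), the smallest of the 10. In CD44minus the level was 65.3 and 67.2 CPM in controls and 62.7 and 93.1 in Sox4cKO, where the groups overlapped. Cacna1h encodes the pore of a T-type calcium channel, which opens near the resting potential (chr17:25374285-25433783). In CD44plus it was at 34.3 and 27.6 CPM in controls and 6.36 and 5.40 in Sox4cKO, a log2 fold change of -2.39 (SE 0.77). The CD44minus libraries gave 40.4 and 16.5 CPM in controls and 32.1 and 3.54 in Sox4cKO. The knockout level was therefore 19.02% of control for Cacna1h and 55.6% for Cacna1a, so the pair of calcium channel genes differed widely in the size of the change. Scn3a encodes a voltage-gated sodium channel pore that carries action potentials and is prominent in developing neurons (chr2:65457118-65567627). Its CD44plus levels were 23.5 and 25.9 CPM in controls and 5.92 and 2.93 in Sox4cKO, with a log2 fold change of -2.48 (SE 0.91), the largest of the 10. In CD44minus, Scn3a was at 24.2 and 13.7 CPM in controls and 25.7 and 1.09 in Sox4cKO. That last value rests on 4 reads, with an exact 95% Poisson interval of 1.09 to 10.2 reads for counting error only.

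**Figure D1:**
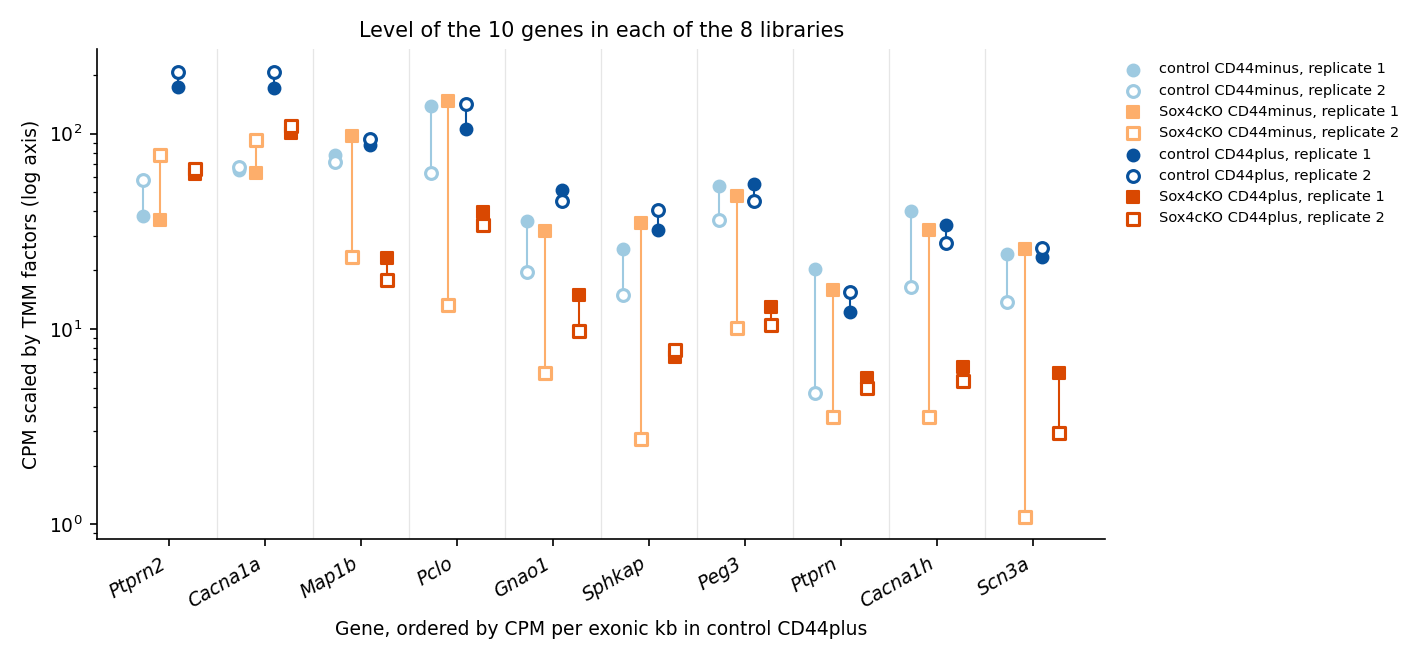
CPM (scaled by TMM factors, log axis) of the 10 genes in each library, with 1 point per library, filled for replicate 1 and open for replicate 2, and a line joining the 2 libraries of a group. In CD44plus every Sox4cKO point lies below both control points of the same gene, whereas in CD44minus the 2 Sox4cKO libraries lie far apart for all but Cacna1a and Ptprn2.

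Of the release and granule genes, Pclo encodes piccolo, a very large scaffold of the active zone where vesicles fuse (chr5:14514918-14863459). Control CD44plus libraries held 106 and 142 CPM of Pclo, and Sox4cKO ones 39.7 and 34.3, a log2 fold change of -1.74 (SE 0.85). Its CD44minus levels were 139 and 63.2 CPM in controls and 147 and 13.3 in Sox4cKO, so that both the highest and the lowest Pclo values of the series came from the same group. Ptprn (IA-2) and Ptprn2 (phogrin, or IA-2 beta) encode paired proteins of the dense-core granule membrane, which have a receptor phosphatase fold and are autoantigens in type 1 diabetes. Ptprn (chr1:75247027-75264502) was at 12.2 and 15.5 CPM in control CD44plus and 5.63 and 5.02 in Sox4cKO. Ptprn2 (chr12:116485720-117276849) was at 173 and 208 CPM in control CD44plus and 62.4 and 65.7 in Sox4cKO. The Sox4cKO level was 38.5% of control for Ptprn (log2 fold change -1.38, SE 0.87) and 33.6% for Ptprn2 (-1.57, SE 0.66), so these paralogs shifted by about the same factor from very different levels. Between gates they parted. In CD44minus, Ptprn was at 20.2 and 4.71 CPM in controls and 15.8 and 3.54 in Sox4cKO, which overlaps its CD44plus range. Ptprn2 was at 37.7 and 57.7 CPM in control CD44minus and 36.1 and 77.9 in Sox4cKO, below both of its control CD44plus values.

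Gnao1 and Sphkap act in second messenger signalling. Gnao1 encodes the alpha subunit of Go, which in endocrine and nerve cells couples receptors to inhibition of calcium channels and of release (chr8:93809966-93969388). Gnao1 was at 51.4 and 45.3 CPM in control CD44plus and 14.9 and 9.75 in Sox4cKO, a log2 fold change of -1.97 (SE 0.67). In CD44minus its level was 35.7 and 19.6 CPM in controls and 31.6 and 5.99 in Sox4cKO. Sphkap encodes an anchor that holds protein kinase A in place in the cell (chr1:83254139-83408200). Sphkap was at 32.2 and 40.7 CPM in control CD44plus and 7.22 and 7.86 in Sox4cKO, a log2 fold change of -2.27 (SE 0.78). Its knockout replicates lay closer together than its control replicates. The CD44minus libraries held 25.6 and 14.9 CPM of Sphkap in controls and 35.1 and 2.72 in Sox4cKO.

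Map1b encodes a microtubule-associated protein of growing axons (chr13:99421446-99516540). It was at 87.4 and 93.4 CPM in control CD44plus and 23.1 and 17.8 in Sox4cKO, a log2 fold change of -2.14 (SE 0.68). In CD44minus, Map1b was at 78.1 and 71.5 CPM in controls and 97.8 and 23.4 in Sox4cKO. Its control CPM was thus close in the 2 gates. Predicted background, described below, was 28.0% and 17.6% of its control CD44minus reads by coding kb (8.11% and 5.11% by exonic kb). In control CD44plus it was 3.67% and 3.20% (1.06% and 0.927%). The Map1b level in Sox4cKO CD44plus was as low as in Sox4cKO CD44minus replicate 2. Peg3 is an imprinted gene expressed from the paternal copy, and encodes a zinc finger protein (chr7:6703892-6730431). Peg3 was at 55.4 and 45.4 CPM in control CD44plus and 13.0 and 10.5 in Sox4cKO, a log2 fold change of -2.10 (SE 0.65). Its CD44minus levels were 53.8 and 36.1 CPM in controls and 47.9 and 10.1 in Sox4cKO. Of the 45 pairs among the 10 genes, Peg3 and Cacna1h had the most similar profile over the 8 libraries (r = 0.987).

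In CD44plus, then, each Sox4cKO library was below each control library for all 10 genes, beside 16.4% of all 20427 genes tested. For 9 of the 10, all but Cacna1a, the Sox4cKO mean was also at most 50% of the control mean, beside 6.29% of all genes. The list was chosen on this contrast, so nothing is read from these counts. The median log2 fold change was -2.04 for the 10 genes and 0 for all genes. The gap between groups exceeded the gap between replicates for each gene: the lowest control was 1.55 (Cacna1a) to 4.33 (Cacna1h) times the highest Sox4cKO library, and replicates differed by at most 1.34 times in controls (Pclo) and 2.02 times in Sox4cKO (Scn3a). An exact permutation test of 2 against 2 libraries cannot go below 0.333 (two-sided). In bulk RNA, fewer cells of a type and less RNA per cell cannot be told apart. Over all genes, edgeR's quasi-likelihood test called 0 genes (0%) in this comparison at an adjusted p of 0.05, DESeq2 also called 0, and 128 genes had an unadjusted p under 0.05 in edgeR. Fitted with the 4 CD44plus libraries alone, edgeR called 17 genes, all of them lower in Sox4cKO.

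The same genotypes in CD44minus gave no such separation. On TMM-scaled CPM, none of the 10 genes had non-overlapping groups there, beside 5.96% of all genes lower and 6.5% higher. Without TMM factors 1 of the 10 did, Ptprn2 (lower in Sox4cKO, beside 6.57% of all genes). The fit called 0 of 20427 genes (0%) in edgeR and 0 in DESeq2, with 116 genes at an unadjusted p under 0.05 in edgeR, and 0 of the 10 had one. The Sox4cKO replicates lay far apart, by more than 10-fold for Scn3a, Sphkap and Pclo. Without Sox4cKO CD44minus replicate 1, only replicate 2 is left in that group, so effect sizes alone are given. The log2 fold changes were then -4.09 for Scn3a, -2.98 for Cacna1h, -2.93 for Pclo and -2.87 for Sphkap. For Gnao1, Peg3 and Map1b they were -2.19, -2.16 and -1.69. Of the other genes, Cacna1a (93.1 CPM) and Ptprn2 (77.9 CPM) lay above both controls in replicate 2, and Ptprn (3.54 CPM) below both. Whether the effect differed between gates was fitted as an interaction, which called 0 genes (0%) in edgeR and 0 in DESeq2, with 50 genes at an unadjusted p under 0.05 in edgeR.

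Reads over the receptor-gene background set Cacna1a and Ptprn2 apart from the other 8 genes in Sox4cKO CD44minus replicate 2. Predicted background is the receptor genes' reads per kb multiplied by the exon length of the gene. The receptor kb can be counted over coding sequence or over all annotated exons. The first gives a higher background and thus the lower ratios, and which of them is nearer the truth was not tested. In Sox4cKO CD44minus replicate 2, Cacna1a had 36.3 times and Ptprn2 40.3 times the predicted reads by coding kb (125 and 139 times by exonic kb). The other 8 had 0.389 (Scn3a) to 6.58 (Map1b) times in that library (1.34 to 22.7 times by exonic kb). In the 3 other CD44minus libraries all 10 lay between 1.35 and 8.45 times by coding kb (4.66 to 29.1 by exonic kb). Cacna1a and Ptprn2 were not set apart in 2 of those: in control replicate 1 and Sox4cKO replicate 1, Pclo was above both. In control CD44plus the ratios were 9.30 (Scn3a) to 128 (Ptprn2) by coding kb and 32.1 to 442 by exonic kb. The share of background in a weak gene therefore depends on the gauge. For Scn3a in Sox4cKO CD44plus replicate 1, it was 53.3% of the reads by coding kb and 15.5% by exonic kb. With background subtracted per exonic kb, the knockout difference in CD44plus was -2.59 for Scn3a, -2.49 for Cacna1h and -2.34 for Sphkap on the log2 scale. Per coding kb, an alternative chosen after seeing the data, it was -3.15, -2.77 and -2.55.

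**Figure D2:**
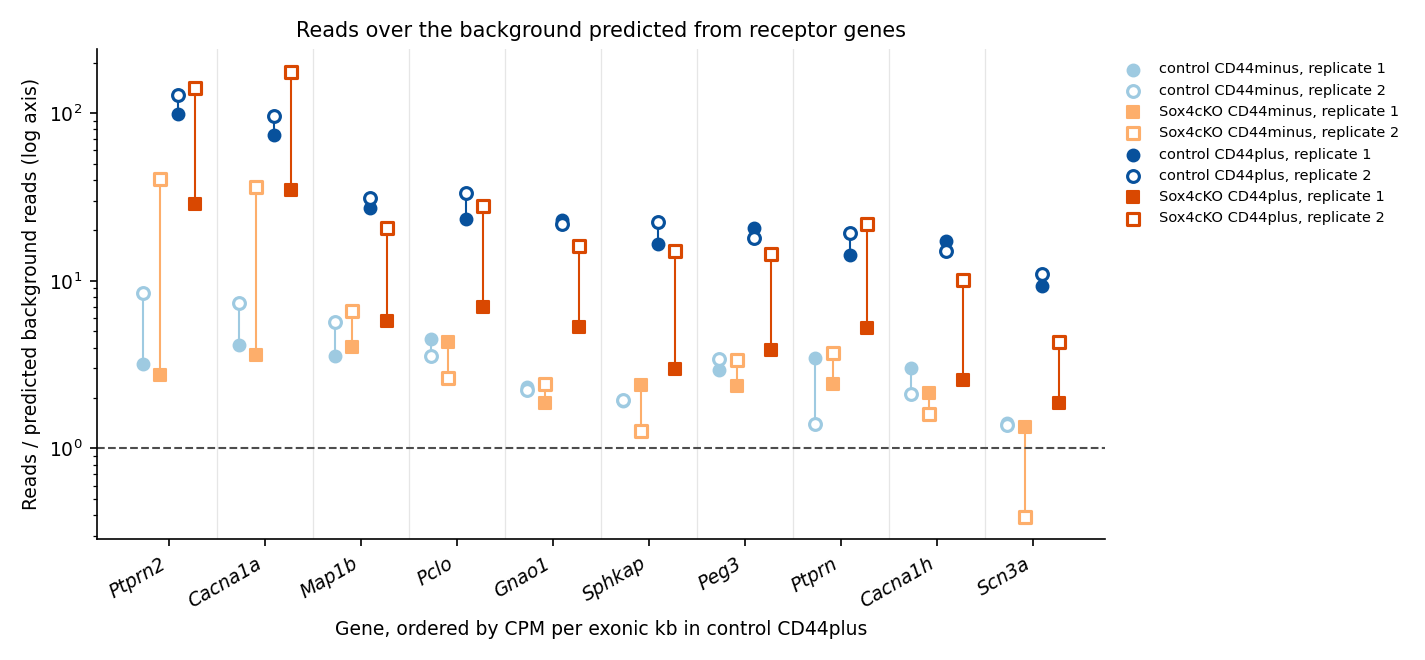
Reads of each gene divided by the background reads predicted from 1432 receptor genes by coding kb (log axis, dashed line at 1), for each library with symbols as in the plot of CPM. In Sox4cKO CD44minus replicate 2, Cacna1a and Ptprn2 lie at 36.3 and 40.3, and the other 8 genes at 6.58 or below.

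Cacna1a and Ptprn2 were also the genes that differed most between gates in controls. Cacna1a was higher in CD44plus by 1.51 on the log2 scale (SE 0.67, edgeR adjusted p = 0.193) and Ptprn2 by 1.99 (SE 0.68, edgeR adjusted p = 0.116). Neither passed the threshold, beside 2.46% of all genes called in this comparison, and 0 of the 10 passed (2.01% of all genes were called higher and 0.445% lower). Higher CD44plus values without overlap were found for 5 of the 10 (Map1b, Sphkap, Cacna1a, Ptprn2 and Gnao1), beside 38.7% of all genes, but for Cacna1a and Ptprn2 alone without TMM factors or with DESeq2's size factors. Both passed in edgeR when the 4 control libraries were fitted alone (adjusted p = 0.00713 for Cacna1a and 0.000215 for Ptprn2) and when background was subtracted per coding kb (0.0333 and 0.00640). Per exonic kb Ptprn2 alone passed in edgeR (adjusted p = 0.0241). Each of these fits called far more genes than the 502 behind that 2.46%, as counted in the last section. Passing in them is therefore not particular to these 2 genes. The control CD44plus libraries used here are also those of the knockout comparison. In Sox4cKO, 0 of the 10 were called between gates, beside 2.58% of all genes in edgeR (1.65% higher, 0.925% lower). DESeq2 called Map1b lower in CD44plus (-1.93 on the log2 scale, DESeq2 adjusted p = 0.0424) and no other of the 10. Here Map1b was lower in CD44plus without overlap (16.2% of all genes) and Cacna1a higher (21.1%), but without TMM factors 0 of the 10 had non-overlapping groups in either direction. With 1 Sox4cKO CD44minus library left, the difference between gates in Sox4cKO depended on which it was. For Pclo, for example, it was -1.99 on the log2 scale without replicate 2 and 1.47 without replicate 1. With the animal as a block, which pairs the gates of 1 animal, edgeR called 3659 genes in control and 1710 in Sox4cKO, and 0 of the 10 in either.

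Profiles over the 8 libraries, taken from the same reads, show the same division. Log2 CPM of the 45 gene pairs correlated at a median r of 0.888, from 0.0247 (Cacna1a with Cacna1h) to 0.987. Against the mean standardized profile of the 10, Cacna1a had r = 0.335 and Ptprn2 r = 0.36, and the other 8 had 0.878 (Ptprn) to 0.988 (Gnao1). These correlations are a description: the points share library depth and the background above. Of 16997 genes ranked by likeness to that mean profile, the closest 10 were Cd276 (r = 0.982), Rgs4 (0.966), Scg3 (0.963), Isl1 (0.955), Pax6 (0.945), BC049762 (0.942), Mdm1 (0.942), Amigo2 (0.941), Cnr1 (0.935) and Abcc8 (0.931). Scg3 encodes a granin of secretory granules, Isl1 and Pax6 transcription factors of endocrine cells, Cnr1 a cannabinoid receptor that couples to Gi and Go, and Abcc8 the sulfonylurea receptor of the ATP-sensitive potassium channel. Pax6, for example, was at 31.1 and 40.5 CPM in control CD44plus and 5.63 and 7.10 in Sox4cKO. When likeness was measured over the 4 CD44plus libraries, 0 of these 10 were among the closest 10, and 10 were with a prior count of 2 in place of 0.5. Over those 4 libraries the genes chosen for this report had r = 0.968 (Cacna1a) to 0.998 (Map1b) with their mean profile, and Ptprn2 0.992. The division above was therefore not seen in CD44plus alone, where all 10 had been chosen for their fall.

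**Figure D3:**
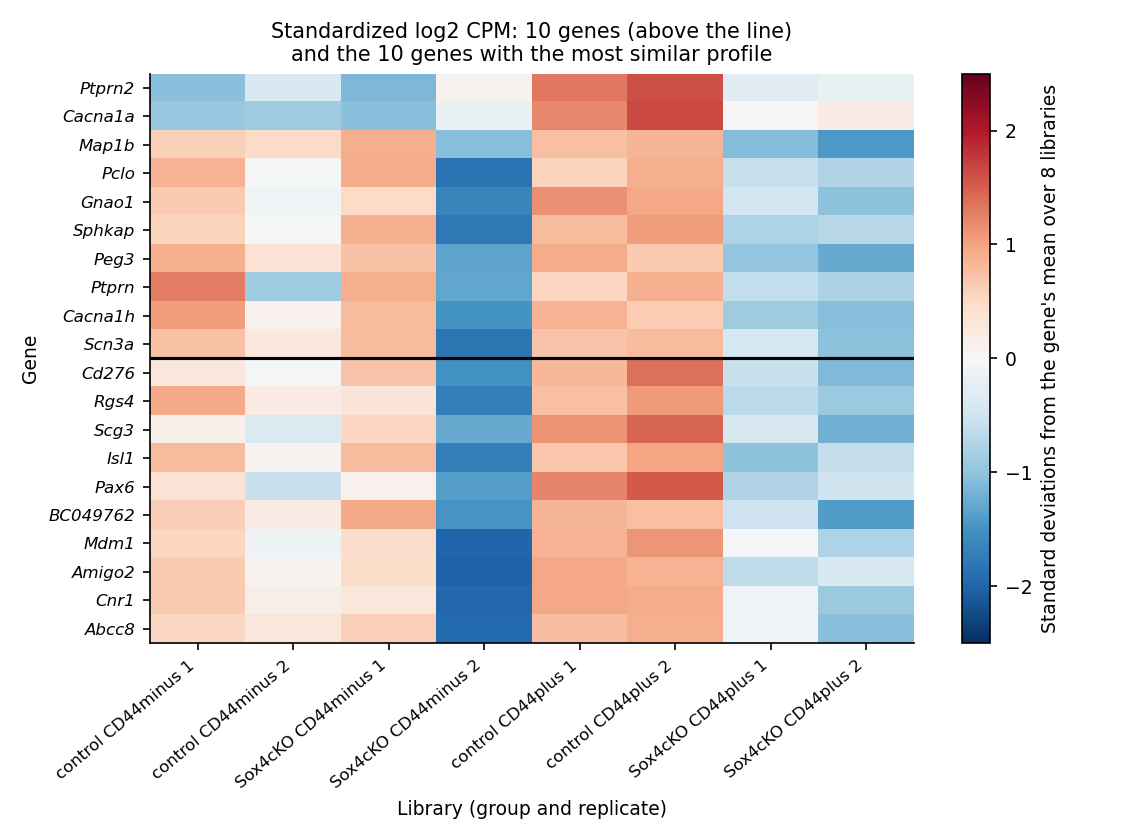
Log2 CPM of each gene, standardized over the 8 libraries (colour, in standard deviations), for the 10 genes above the line and the 10 genes of most similar profile below it. Sox4cKO CD44minus replicate 2 is low in all rows but Cacna1a and Ptprn2, which are high in the control CD44plus libraries.

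Other genes of the same functions are described next, with medians nearer to 0 than that of the 10 (-2.04). The 10 were chosen for their fall in this contrast, so that difference follows from the choice. In each of 9 lists the 10 genes are left out, edgeR called 0 genes for the knockout effect in CD44plus (0% of all genes), and the counts are of genes whose groups did not overlap, beside 16.4% lower and 14.2% higher over all genes. Of 16 other voltage-gated calcium channel genes, 4 were lower and 1 higher, with a median log2 fold change of -0.36. Cacnb3, the most abundant auxiliary subunit gene per kb in the list, was at 29.6 and 32.8 CPM in control CD44plus and 20.1 and 18.7 in Sox4cKO. Cacna2d1, a subunit that brings channels to the membrane, was at 17.3 and 18.4 against 8.38 and 5.40. The L-type pore gene Cacna1c, at 18.8 and 21.0 against 11.1 and 5.68, lay between Cacna1a and Cacna1h in the size of its change. Of 14 other sodium channel genes, 1 was lower and 1 higher, with a median of -0.07. The most abundant of them per kb, Scn2b, a beta subunit gene, was at 28.7 and 33.0 CPM in control CD44plus and 34.4 and 36.8 in Sox4cKO. Scn3a and Scn2b thus lay on opposite sides. Of 36 potassium channel genes, 14 were lower and 1 higher, with a median of -0.48. Abcc8 was at 39.6 and 44.5 CPM in control CD44plus and 18.2 and 7.95 in Sox4cKO.

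Exocytosis was the list with the most members on the lower side. Of its 51 other genes, 24 were lower and 4 higher, with a median of -0.44. Rab3c, a small GTPase of secretory vesicles, was at 25.8 and 17.0 CPM in control CD44plus and 6.79 and 3.12 in Sox4cKO, and the SNARE gene Snap25 at 4.999 and 2.55 against 0.433 and 0.663. The Snap25 levels rest on few reads, 56 and 14 against 3 and 7. The most abundant genes of the list per kb were Rab3d, at 99.8 and 87.8 CPM against 93.9 and 98.9, and the vesicle chaperone Dnajc5, at 106 and 106 against 107 and 138. Neither of these widely expressed vesicle genes was lower in Sox4cKO. Among 17 other genes of the granule membrane and receptor phosphatase list, 5 were lower and 1 higher, with a median of -0.18, and Ccdc186 and Eipr1 had no row in the tables. Ptprf, the most abundant per kb, was at 569 and 516 CPM against 440 and 427, and Ptprd, with the lowest log2 fold change among the others, at 99.7 and 104 against 65.2 and 71.5. Ptprn and Ptprn2 were chosen for their fall, so nothing is read from their larger fold changes beside the other 17.

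Of 35 other cytoskeleton genes, 10 were lower and 2 higher, with a median of -0.32. Nefl, the light neurofilament gene, was at 9.82 and 19.9 CPM in control CD44plus and 5.78 and 2.46 in Sox4cKO. Stmn1, a tubulin-binding protein of dividing cells, was at 46.0 and 30.3 against 37.0 and 52.2, with overlapping groups. For Go and Gi signalling, 8 of 29 other genes were lower and 2 higher, with a median of 0.14. Rgs4, which speeds the switching off of Gi and Go, was at 11.9 and 15.9 CPM against 3.03 and 2.37. The abundant alpha subunit genes Gnai2 (308 and 356 against 333 and 514) and Gna11 (251 and 201 against 272 and 232) overlapped between groups. Among 26 other genes of kinase anchoring and protein kinase A, 5 were lower and 3 higher, with a median of 0.03. The adenylyl cyclase genes went both ways: Adcy1 was at 20.3 and 29.7 CPM against 8.81 and 5.87, and Adcy8 at 20.6 and 19.5 against 41.0 and 33.4. Of 25 other imprinted genes, 3 were lower and 5 higher, with a median of 0.21. Nnat, at 7.32 and 13.3 CPM against 3.18 and 0.0947, and Nap1l5, at 2.86 and 3.28 against 0.578 and 0.473, lay on the side of Peg3, and the non-coding RNA H19, at 16.0 and 25.5 against 37.4 and 186, on the other. In Sox4cKO CD44plus, Nnat rests on 22 and 1 reads and Nap1l5 on 4 and 5.

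**Figure D4:**
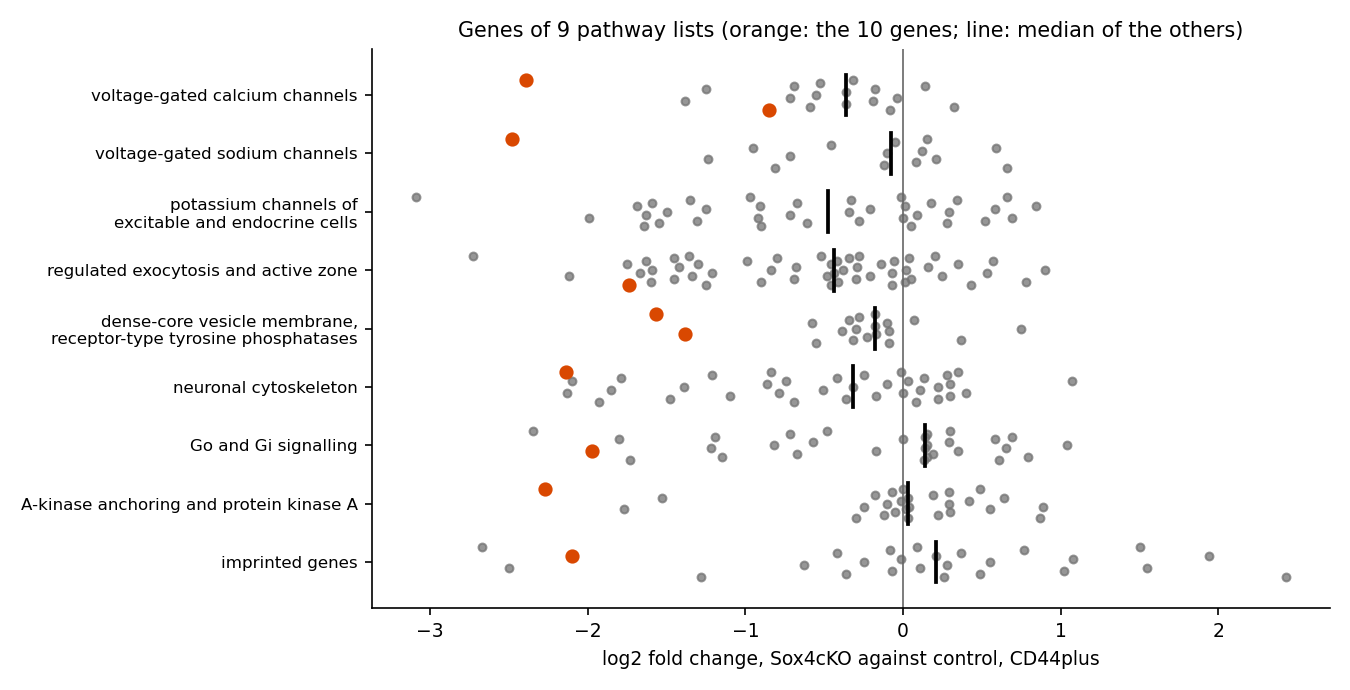
Log2 fold change of Sox4cKO against control in CD44plus for each tested gene of 9 lists, with the 10 genes in orange, the other genes in grey and a line at the median of the others. The medians lie between -0.48 and 0.21, and the 10 genes between -2.48 and -0.85.

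Gate calls in these lists came from other genes than the 10. By edgeR's adjusted p, the active zone gene Rimbp2 was higher in CD44plus than in CD44minus of controls by 2.36 on the log2 scale (SE 0.57, adjusted p = 0.0374), and it lost that call with DESeq2's size factors in edgeR (adjusted p = 0.0504). Rimbp2 was at 59.0 and 79.0 CPM in control CD44plus and 21.7 and 36.4 in Sox4cKO. Stmn1 and the kinase subunit gene Prkacb were higher in CD44plus of both genotypes, Stmn1 by 3.13 and 3.63 and Prkacb by 3.88 and 3.07. Rgs2, Pde3b and H19 were called higher and Ptprh lower in CD44plus of Sox4cKO. All 6 calls in Sox4cKO were lost without Sox4cKO CD44plus replicate 2 (edgeR adjusted p = 0.131 for Stmn1 to 0.877 for Pde3b). The 3 calls in controls were lost without any 1 of the 4 control libraries (edgeR adjusted p = 0.0997 for Prkacb to 0.434 for Rimbp2).

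Markers of the cells that could carry these genes were listed too. Of 22 enteroendocrine markers, 21 were lower without overlap in Sox4cKO CD44plus (16.4% of all genes were), with a median log2 fold change of -1.64. Their summed level was 5171 and 6472 CPM in control CD44plus and 1371 and 1892 in Sox4cKO, and 246 to 330 CPM in CD44minus. The hormone gene Gip was at 1211 and 2195 CPM against 183 and 255, and the granin gene Chga at 632 and 565 against 132 and 168. Tph1, the enzyme of serotonin synthesis, was the exception, at 77.2 and 76.1 against 36.4 and 142. Its high value is from Sox4cKO CD44plus replicate 2, which stands apart in blood cell genes (below). In replicate 1 Tph1 was below both controls, and the cause of the difference was not tested. In controls 9 of the 22 were called higher in CD44plus than in CD44minus by edgeR (2.01% of all genes were), among them Gip, Chga, Chgb and Cpe. Gip differed between the gates of controls by 8.66 on the log2 scale and the hormone gene Sst by 4.55. Other markers differed less: Isl1 was at 20.2 and 12.6 CPM in control CD44minus and 18.9 and 23.0 in control CD44plus. Scg3 was at 10.8 and 7.46 CPM in control CD44minus and 22.3 and 28.6 in control CD44plus. Among the 10 genes the largest difference was 1.99, for Ptprn2. The part of the marker change in the change of the 10 genes was not tested.

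Markers of nerve, glial and blood cells were measured as well. The 18 enteric neuron markers summed to 53.0 and 51.3 CPM in control CD44plus and 49.99 and 26.4 in Sox4cKO, with 6 lower and 2 higher without overlap, beside 16.4% and 14.2% of all genes. In control CD44plus, Ret was at 11.7 and 21.2 CPM, Chat at 7.95 and 4.93 and Elavl3 at 5.45 and 5.47, whereas Uchl1 was at 0.536 and 1.82, Tubb3 at 1.25 and 0.365 and Vip at 0.0893 and 0. None of the 18 was at 0 in all 4 CD44plus libraries. The 9 enteric glia markers summed to 26.1 and 15.3 CPM in control CD44plus and 20.1 and 4.73 in Sox4cKO. The epithelial genes Epcam (1370 and 1377 CPM) and Cdh1 (1477 and 1340) were high in control CD44plus. Mast cell markers summed to 1675 and 2853 CPM in control CD44plus and 3442 and 17025 in Sox4cKO, and markers of T cells to 1936 and 2951 against 2065 and 5025, so Sox4cKO CD44plus replicate 2 stands apart in blood cell genes. Without that library the log2 fold changes of the 10 genes ranged from -2.33 to -0.91, all lower in Sox4cKO. The part of nerve, glial and blood cells in the results was not tested.

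**Figure D5:**
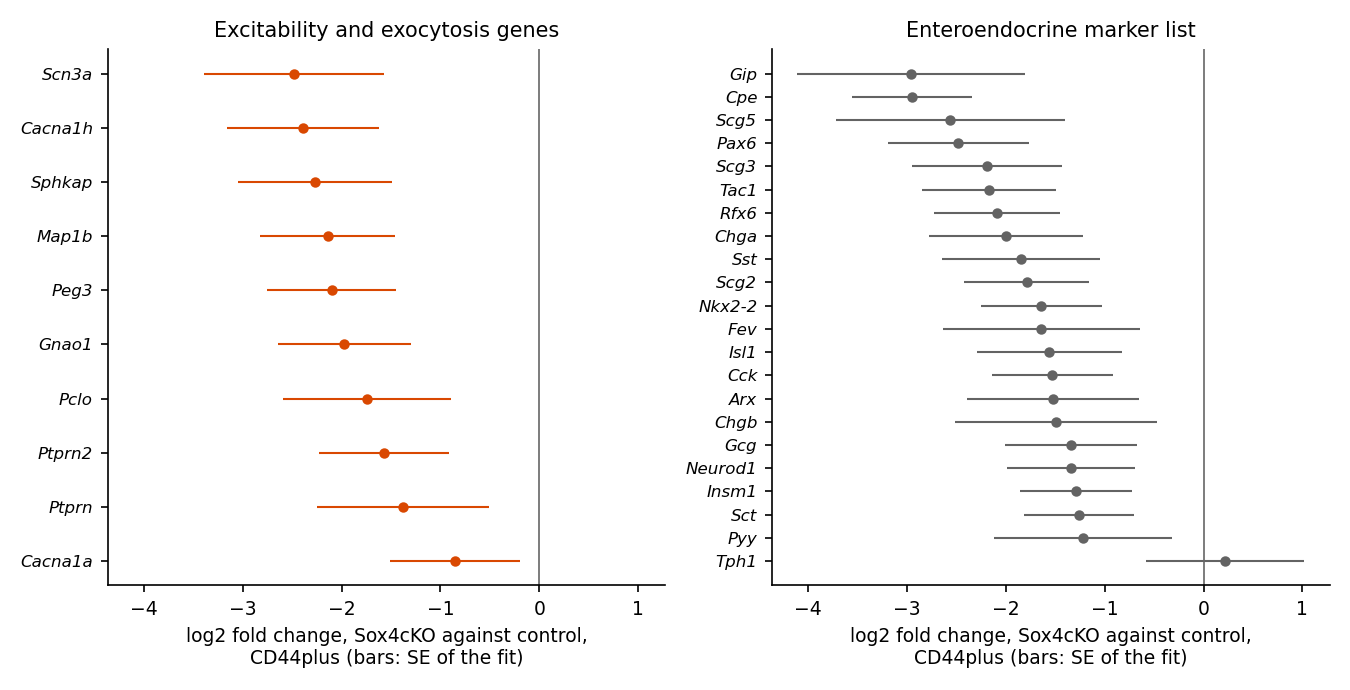
Log2 fold change of Sox4cKO against control in CD44plus with the SE of the edgeR fit, for the 10 genes (left) and the 22 enteroendocrine markers (right). The 10 genes lie between -2.48 and -0.85, and 21 of the 22 markers lie below 0, Tph1 excepted.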

How the data were processed

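Total RNA of 8 libraries was sequenced from stranded low-input preparations, per the labels' protocols. Each library has 1 deposited table of raw counts, with a row for every gene symbol. Tools named in the submitters' processing notes are HTSeq 0.6.1p1, STAR 2.2.5b, Trimmomatic 0.36 and bcl2fastq 2.17.4, and the build is mm10. Settings, including the strand setting of counting, are not given in the sources used here. Exons of Cacna1h, Cacna1a, Ptprn, Pclo and Gnao1 overlap exons on the opposite strand, so their counts could include reads of the partner.

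Of 23366 symbols, 98.5% matched GENCODE M21 (GRCm38), which gave positions and exon lengths. Counts were fitted in R 4.3.3 with edgeR 4.0.16: filterByExpr (minimum count 10), TMM factors (0.528 to 1.72), and quasi-likelihood tests over 4 groups in all 8 libraries, with Benjamini-Hochberg adjustment over 20427 genes and a threshold of 0.05. The script was tested on simulated counts. The labels call the replicates biological. Table names give the same animal number for both gates of a replicate, so gates are paired by animal. Deviations from group means correlated between gates at 0.108 in control and 0.531 in Sox4cKO. Control and Sox4cKO libraries share only a number. Alternatives used DESeq2 1.42.0, limma 3.58.1, other filters and scalings, subsets of libraries and subtraction of background.

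The 10 genes, the lists and the tests were chosen with earlier results of these data known. Text names all 10 genes. Of each list it names from the 3 genes of highest level per kb, the 2 largest falls and the largest rise among non-overlapping genes with a mean of at least 1 CPM. The 10 genes of most similar profile, genes called between gates, and single markers chosen after their values were seen are named too.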

Additional observations from a re-analysis of the deposited data

How the results depend on the processing

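The knockout effect in CD44plus kept its direction for all 10 genes in all 170 values over the alternatives, from -3.17 to -0.70 on the log2 scale, and 167 moved by less than 1 SD. The 10 were chosen for a fall in this contrast and their groups did not overlap. Their direction could therefore hardly change, and nothing is read from it. Counts of genes called depended on the processing, and except where a subset of libraries sets them the cause was not tested. In CD44plus, where 0 genes were called, edgeR called 17 with the CD44plus libraries alone and 565 (343 higher, 222 lower) when the replicate number was added as a block to those. These animals share only a number (correlation 0.286 in CD44plus and 0.62 in CD44minus). The replicate block by animal called 0 genes for the knockout effect in either gate, and the block by number 0 in CD44minus. Leaving out 1 library gave 0 to 24 genes in CD44plus, 0 to 7620 in CD44minus and 0 to 255 for the difference between gates, the highest each time without Sox4cKO CD44minus replicate 1.

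Between gates in controls, 502 genes were called (411 higher, 91 lower). The count was 994 with no filter, 1089 with a minimum count of 30, 2227 with DESeq2 (1146 higher, 1081 lower), 9876 with control libraries alone (4396 higher, 5480 lower), 1488 with background subtracted per exonic kb and 2089 per coding kb (added after seeing the data), 3659 with the animal as replicate block (1505 higher, 2154 lower) and 0 to 7358 with 1 library left out. Between gates in Sox4cKO, 527 were called (338 higher, 189 lower). The count was 884 with no filter, 1093 with a minimum count of 30, 1781 with DESeq2 (721 higher, 1060 lower), 0 with Sox4cKO libraries alone, 1320 with background subtracted per exonic kb (1022 higher, 298 lower) and 1925 per coding kb (1457 higher, 468 lower), 1710 with the replicate block (806 higher, 904 lower) and 11 to 8436 with 1 library left out. DESeq2's size factors in edgeR gave 560 (384 higher, 176 lower) and 641 (329 higher, 312 lower). They moved the median of all genes by -0.34 and -0.28 on the log2 scale, after which 5 of the 10 genes were higher in CD44plus of controls, beside all 10 with TMM. In controls Cacna1a passed in 4 and Ptprn2 in 7 of 16 alternatives. Of the 10 genes of most similar profile, 0 remained with CD44plus libraries alone. In 3 CD44minus libraries the receptor genes took 1229 to 2360 CPM, beside at most 392 CPM in the other libraries.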
